A study of Mus musculus with 42 samples.

Results

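The interferon-induced genes are a set of 42 mouse genes named for their response to interferon. They were taken by gene name from 2 count tables of 48321 names each and followed through the reprogramming of embryonic fibroblasts (MEF) to induced pluripotent stem cells (iPSC). The RNA-seq data hold 42 libraries in 14 groups of 3, all labelled male, in 2 sequencing batches of 21 that were analysed apart. Batch 1 holds the naivex2 lines, which carry 1 copy each of a Tet1-mCherry transgene (B37Koh) and a Pou5f1-EGFP transgene (2Mnn), on a mixed B6, 129S4 and CBA background. Their groups are day 0 MEF, mCherry+/GFP- cells at day 10, mCherry+/GFP+ and mCherry+/GFP- cells at days 12 and 14, and 1 iPSC clone per line. Batch 2 holds the totalx2 lines, a cross of the targeted alleles Tet1tm1.1Koh and Pou5f1tm2Jae, with mCherry+/GFP- cells at day 8 and mCherry+/GFP+ and mCherry+/GFP- cells at days 10 and 12. It also holds 3 iPSC clones homozygous for the Tet1tm1Koh mutation (knockout) and 3 wild-type clones, which share the Pou5f1-EGFP transgene. All sorted groups share mCherry, so GFP+ and GFP- below name the second gate. The sorted cells came from 3 independent lines, and the iPSC were passaged on feeder cells and then depleted of them. Nothing in the labels gives the knockout and wild-type clones separate animals, so their p-values measure the spread between clones.

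Interferons are secreted when a cell senses viral nucleic acid, and they act through cell-surface receptors and the kinases JAK1 and TYK2. Type I interferon activates a complex that contains STAT2 and IRF9 and binds the interferon-stimulated response element (ISRE) and switches on antiviral genes. Embryonic stem cells are known for a weak interferon response, while fibroblasts respond strongly and keep a low tonic level of these genes without infection.

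The ISRE is short and lies close to the start of many of these genes, so the stretches of promoter that hold it are shown for 9 members of different roles. RefSeq promoters of GRCm38.p6 were matched by name for 33 of the 42 members. The core, GAAA, any 2 bases and GAAA, occurred on either strand, overlapping cores included, within 250 bases upstream of the start in 15 of the 33 (45.5%), against 936 of 27025 genes (3.46%). Capitals mark the cores, each sequence reads 5′ to 3′ on the gene's strand, and overlapping cores run together. A core in the opposite orientation reads TTTC, any 2 bases, TTTC.
Isg15, minus strand, chr4:156200860-156200911: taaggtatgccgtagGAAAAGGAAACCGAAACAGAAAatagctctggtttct
Ifit1, plus strand, chr19:34640770-34640828: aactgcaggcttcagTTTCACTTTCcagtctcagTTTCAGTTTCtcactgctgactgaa
Ifit3, plus strand, chr19:34583358-34583431: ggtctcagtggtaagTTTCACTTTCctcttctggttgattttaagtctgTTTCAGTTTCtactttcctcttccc
Oas1a, minus strand, chr5:120907526-120907560: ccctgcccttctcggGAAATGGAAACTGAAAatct
Gbp3, plus strand, chr3:142559984-142560029: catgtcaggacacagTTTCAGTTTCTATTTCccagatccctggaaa
Irgm1, minus strand, chr11:48871421-48871465: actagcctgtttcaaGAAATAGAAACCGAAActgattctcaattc
Stat2, plus strand, chr10:128270261-128270300: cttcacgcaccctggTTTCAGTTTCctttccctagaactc
Bst2, minus strand, chr8:71537572-71537617: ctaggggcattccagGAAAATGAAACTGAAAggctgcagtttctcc
Trim30a, minus strand, chr7:104465205-104465244: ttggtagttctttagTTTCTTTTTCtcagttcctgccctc
Isg15 held 3 overlapping cores in this window, and Ifit1, Ifit3, Oas1a, Gbp3, Irgm1 and Bst2 held 2 each. Isg15, Ifit1, Ifit3, Oas1a, Gbp3 and Irgm1 were lower in GFP+ than GFP- totalx2 cells at day 12, as given below, while Stat2, Bst2 and Trim30a were not called there. The shorter STAT-binding core TTCNNNGAA, the form of a gamma-activated site, occurred in 7 of the 33 (21.2%), against 8.13% of all genes.

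Counts per library summed to 6540256 to 20783265, and each library detected 18838 to 21666 genes. Levels are CPM, counts scaled to TMM-adjusted library totals. Of the 42 members, 41 passed the low-count filter in both batches, among 16132 genes tested in batch 1 and 15197 in batch 2. Igtp, an interferon-inducible GTPase, was the member that did not pass, with 1 count summed over all 42 libraries. Its span shares 99.2% of its bases with that of Irgm2 on the same strand, where a read in both genes went uncounted. Irgm2 itself shares 34.4% of its span and Rtp4 shares 42.4% with a neighbour, and the Ifit, Oas, Gbp, Irgm and Trim30 families have close copies, so those levels are less certain. Reads on mitochondrial genes made up 1.753 to 12.18% of counts, over 8% only in line 1 of the naivex2 day 10 cells and in wild-type clone 1. The targeted gene fell in the knockout. Tet1 held 54.4, 58.6 and 57.3 CPM in the knockout clones, against 1303, 823 and 874 CPM in wild-type ones.

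The members were highest at day 8 in the totalx2 lines. Of the 41 tested members, 36 had their highest group mean of batch 2 in the totalx2 day 8 GFP- cells, and 24 had their lowest in the knockout iPSC. Highest and lowest groups were not counted over all genes. The median log2 CPM of the 41 members was 5.15, 5.82 and 5.51 in the day 8 GFP- libraries of lines 1, 2 and 3. It was 3.33, 4.52 and 4.32 in day 10 GFP+ cells and 2.61, 3.56 and 4.18 in day 10 GFP- cells. At day 12 it was 2.53, 2.50 and 2.39 in GFP+ cells and 4.05, 4.09 and 4.04 in GFP- cells. All day 10 and day 12 libraries lay below the day 8 libraries, and at day 12 the GFP+ libraries lay below the GFP- libraries. In batch 1 the highest group means were spread out, with 14 of 41 members highest in day 14 GFP- cells and 10 in MEF.

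**Figure D1:**
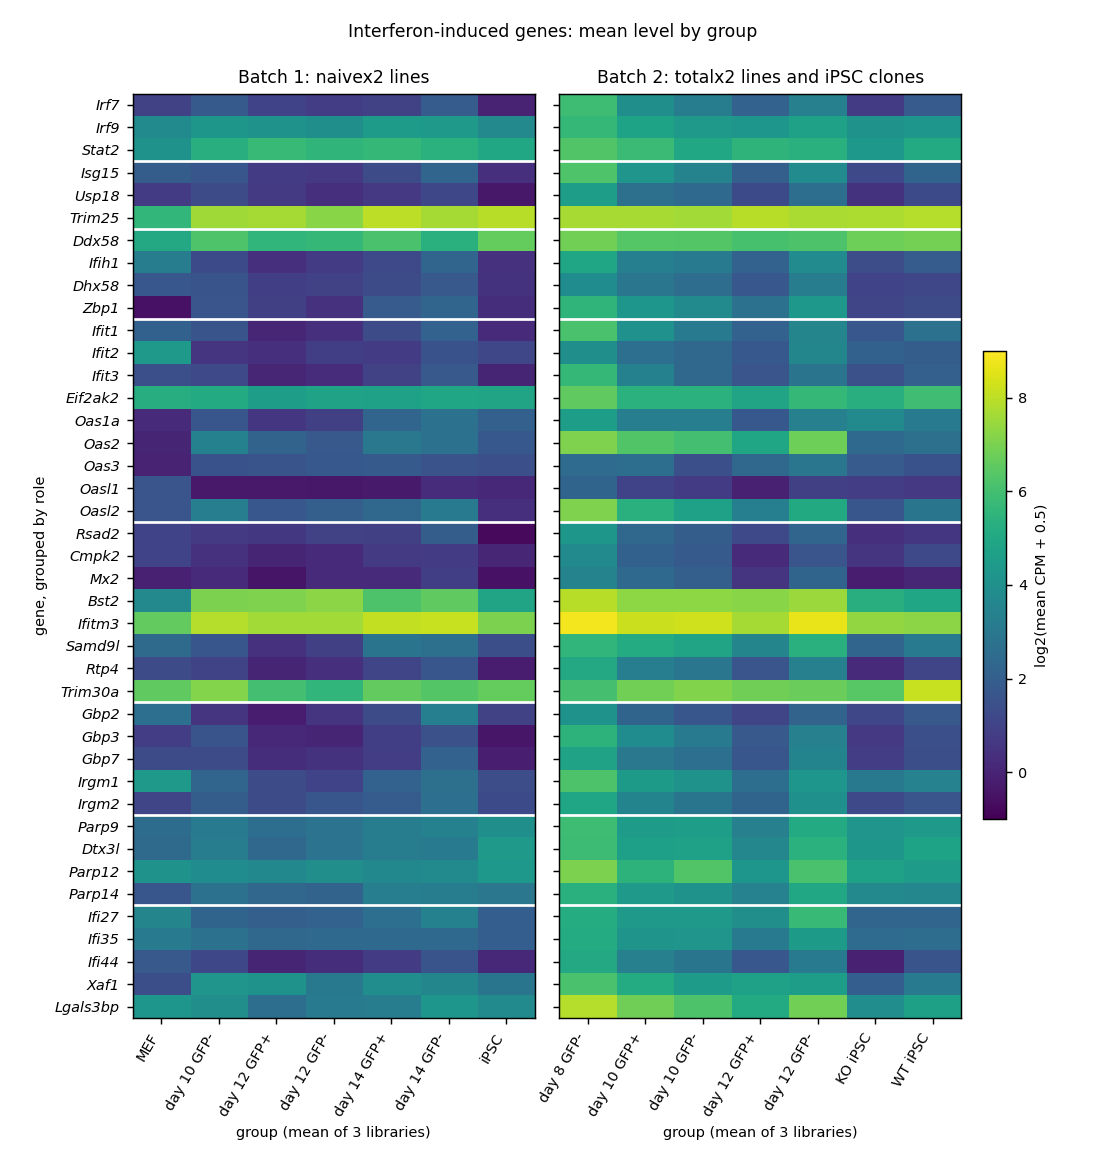
Mean level of 41 interferon-induced genes (rows, grouped by role between white lines) in the 14 groups (columns), as log2(mean CPM + 0.5) over 3 libraries, with batch 1 on the left and batch 2 on the right. Of the 41 rows, 36 have their highest value of batch 2 in the totalx2 day 8 column. Colours compare groups within a row, since CPM is not scaled to gene length.

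In totalx2 GFP- cells most members were lower at day 10 than at day 8. Of 41 members, 36 fell and 0 rose, where 20.7% of all genes tested were called in either direction and 10.7% fell (edgeR quasi-likelihood F test, Benjamini-Hochberg adjusted p under 0.05 over all genes). None rose at an unadjusted p under 0.05 or in DESeq2 (0 members each). Over the members the median log2 fold change was -1.68, against -0.01 over all genes. The 3 day 10 libraries lay below the 3 day 8 libraries in all 36, but overlap was not counted over all genes called.

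By role, the fall covered all 9 members that block translation or degrade RNA, all 5 tested GTPases, all 4 RNA sensors, all 4 of the PARP and DTX3L group and all 3 transcription factors. Isg15, a ubiquitin-like protein that is attached to other proteins, held 60.4, 91.5 and 75.7 CPM at day 8, 5.49, 9.82 and 16.7 CPM at day 10, and 9.94, 16.4 and 14.5 CPM at day 12. The day 10 value was below day 8 in every line, with a log2 fold change of -2.83 ± 0.33 (standard error, adjusted p = 3.34e-05). Ifit3, which binds viral RNA together with Ifit1, held 40.3, 66.2 and 43.3 CPM at day 8, 1.47, 5.75 and 6.31 CPM at day 10, and 5.83, 7.53 and 6.61 CPM at day 12. Its day 10 fold change was the largest fall of the set, -3.47 ± 0.38 (adjusted p = 1.67e-05). Irf7, the transcription factor that amplifies type I interferon production, held 47.1, 72.2 and 57.1 CPM at day 8, 4.67, 9.65 and 12.6 CPM at day 10, and 9.65, 12.2 and 7.55 CPM at day 12. Ifit1 and Rsad2 (viperin, a radical enzyme that makes a chain-terminating nucleotide) fell by 3.02 ± 0.37 and 2.51 ± 0.31 on the log2 scale at day 10.

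The 5 members not called were Bst2, Ifi27, Samd9l, Trim25 and Trim30a. With line as a block Bst2, Ifi27 and Samd9l were called lower as well (edgeR adjusted p = 8.8e-06, 0.0167 and 0.0235), and DESeq2 called Bst2 and Ifi27 (adjusted p = 0.0439 and 0.0367). Bst2 (tetherin, which holds budding virus at the cell surface) held 174.6, 143.3 and 156.1 CPM at day 10, against 252.4, 226 and 243 CPM at day 8, with an adjusted p of 0.0564. Trim25, a ubiquitin ligase that activates RIG-I, held 208.1, 188.5 and 192.2 CPM at day 10, against 220.6, 207.1 and 184.7 CPM at day 8, and its groups overlapped.

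Some members were higher again in GFP- cells at day 12 than at day 10. Of 41 members, 9 rose and 0 fell, where 28.1% of all genes were called and 16.1% rose. The share of members called was thus below that of all genes in either direction, and the share that rose was somewhat above. None fell at an unadjusted p under 0.05 or in DESeq2 (0 members each). Oas3, which makes the short adenylate chains that switch on RNase L, held 8.60, 6.47 and 6.40 CPM at day 12, against 2.21, 1.42 and 3.03 CPM at day 10. That is a log2 fold change of 1.69 ± 0.26 (adjusted p = 0.000193), the largest of the 9. Ifi27, a membrane protein of mitochondria, held 47.8, 52.0 and 60.7 CPM at day 12, against 15, 19.4 and 28.8 CPM at day 10. The count was 14 with line as a block, 5 without line 1 at day 10 or without line 1 throughout, and 21 without line 3 at day 10.

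Day 12 GFP- cells were still below day 8. Against day 8, 31 of 41 members fell and 0 rose, where 31.6% of all genes were called and 14.5% fell. Ifi27 was higher at an unadjusted p under 0.05 (1 member), and 0 rose in DESeq2. The median log2 fold change over all 41 tested members was -1.003, against 0.02 over all genes. Irf7 held 9.65, 12.2 and 7.55 CPM at day 12, against 47.1, 72.2 and 57.1 CPM at day 8, so that no library overlapped (log2 fold change -2.59 ± 0.33, adjusted p = 1.51e-05). Oas2, by contrast, held 124.1, 105.7 and 102.5 CPM at day 12, against 120.4, 162.7 and 117.2 CPM at day 8, and its groups overlapped.

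In the GFP+ gate most members were lower at day 12 than at day 10. Of 41, 32 fell from day 10 to day 12 and 0 rose, where 25.1% of all genes were called and 12.9% fell. Trim25 was higher at an unadjusted p under 0.05 (1 member) and in DESeq2 (1 member). The members' median log2 fold change was -1.38, against 0.00 over all genes. Isg15 held 2.47, 3.98 and 4.18 CPM at day 12, against 10.1, 23.8 and 19.7 CPM at day 10 (log2 fold change -2.33 ± 0.38, adjusted p = 0.000234). Oasl2, an OAS-like antiviral protein, held 10.2, 9.51 and 9.09 CPM at day 12, against 23.5, 50.2 and 45.6 CPM at day 10. Irgm1, a GTPase that acts on pathogen-containing vacuoles, held 5.49, 6.10 and 5.12 CPM at day 12, against 12.2, 31.1 and 20.7 CPM at day 10. Each of the 3 genes was lower in every day 12 library than in any day 10 library.

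At day 10 few members were called between the GFP gates. In GFP+ cells 4 members rose and 1 fell, where 22.4% of all genes were called, 13% higher and 9.36% lower. At an unadjusted p under 0.05, 10 members were higher and 1 lower. Over the members the median log2 fold change was 0.34, against 0.04 over all genes, with 32 members above 0 and 9 below. Stat2, a subunit of the complex that binds the ISRE, held 48.9, 62.6 and 56.8 CPM in GFP+ cells, against 22.1, 29.8 and 40.1 CPM in GFP- cells (log2 fold change 0.87 ± 0.18, adjusted p = 0.00132). Oas3, Xaf1 and Ifit3 were the others that rose. Parp12, an antiviral mono-ADP-ribosyltransferase, fell to 38.1, 48.4 and 43.6 CPM in GFP+ cells, against 77.0, 73.5 and 80.5 CPM in GFP- cells. With line as a block, 7 members rose and 1 fell. The count of 5 became 12 without line 1 in GFP+ cells, 16 without line 3 in GFP- cells, and 3 without line 1 in GFP- cells, line 2 in GFP+ cells or line 3 in GFP+ cells.

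At day 12 the GFP+ cells were below the GFP- cells in 35 of 41 members, and 0 rose. The background was high, since 61.6% of all genes were called and 30.4% fell. Trim25 was higher at an unadjusted p under 0.05 (1 member) and in DESeq2 (1 member). Over the members the median log2 fold change was -1.63, against 0.05 over all genes. Parp12 held 20.7, 16.6 and 18.2 CPM in GFP+ cells, against 75.6, 72.3 and 62.7 CPM in GFP- cells (log2 fold change -1.92 ± 0.11, adjusted p = 5.05e-11). Dtx3l and Parp9, which form a complex of a ubiquitin ligase and an ADP-ribosyltransferase, fell by 1.80 ± 0.18 and 1.80 ± 0.20. Ifitm3, which stops virus fusing with endosomes, held 203.1, 201.2 and 195.9 CPM in GFP+ cells, against 390.5, 397.4 and 422.7 CPM in GFP- cells. Lgals3bp, a secreted glycoprotein, held 32.5, 37.8 and 32.5 CPM in GFP+ cells, against 103.9, 118.4 and 129.5 CPM in GFP- cells. The 3 libraries of the 2 gates did not overlap in any of the 35, but overlap was not counted over all genes called.

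The 6 not called at day 12 were Bst2, Ddx58, Stat2, Trim25, Trim30a and Xaf1. With line as a block Bst2 was called lower and Trim25 higher in GFP+ cells (edgeR adjusted p = 0.00111 and 0.0175). Ddx58 (RIG-I, the cytoplasmic sensor of viral RNA ends) held 56.7, 67.0 and 79.5 CPM in GFP+ cells, against 68.2, 71.4 and 79.5 CPM in GFP- cells. Xaf1, a binding partner of the apoptosis inhibitor XIAP, held 24.1, 25 and 28.1 CPM in GFP+ cells, against 25.6, 23.4 and 21.6 CPM in GFP- cells. Both genes overlapped between the gates. An ISRE core was found in 11 of the 26 called members with a promoter entry (42.3%) and in 4 of the 7 others (57.1%), Igtp included.

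The change of the GFP effect between the days was tested directly as a contrast of the 4 groups. It was lower at day 12 in 35 of 41 members, where 27.3% of all genes were called and 16.7% were lower. None was higher in edgeR, at an unadjusted p under 0.05 or in DESeq2 (0 members each). Isg15 had the largest difference, -2.66 ± 0.50 on the log2 scale (adjusted p = 0.00106), built from 0.74 at day 10 and -1.92 at day 12.

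**Figure D2:**
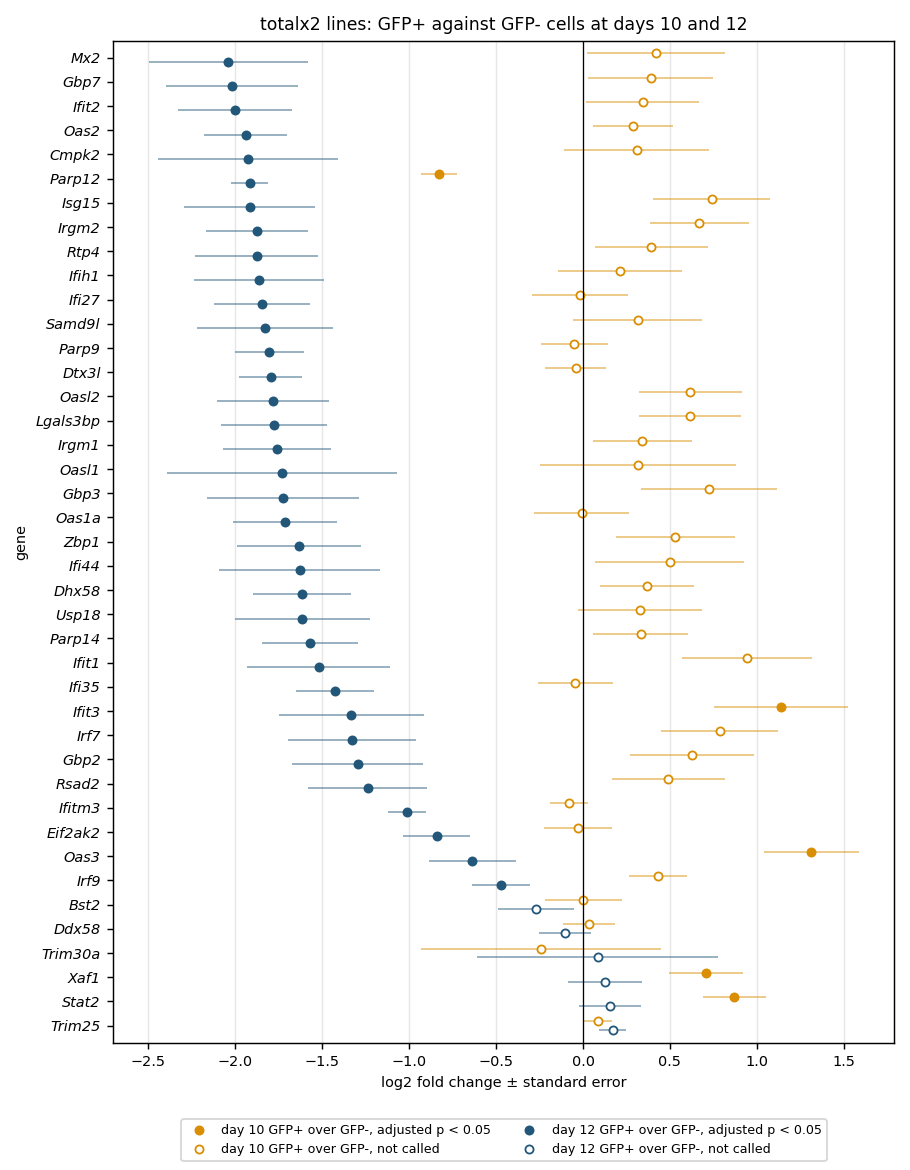
Log2 fold change of GFP+ over GFP- totalx2 cells with its standard error for each of 41 members, ordered by the day 12 value. Blue marks day 12 and orange day 10, and filled points passed an adjusted p of 0.05. The day 12 points of 35 genes are filled and lie left of 0, while at day 10 there are 4 filled points to the right of 0 and 1 to the left.

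The 3 lines did not hold equal levels. Line 1 held the lowest level of 38 of 41 members in day 10 GFP+ cells, of 36 in day 10 GFP- cells and of 30 in day 8 cells. The order of the lines was not counted over all genes. Lgals3bp held 65.0, 158.5 and 113.5 CPM in day 10 GFP+ cells of lines 1, 2 and 3. In day 10 GFP- cells it held 37.8, 74.2 and 107.7 CPM. With any 1 library left out, or line 1 left out throughout, 33 to 35 members were called between the gates at day 12.

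Fibroblast markers moved along with these genes in several comparisons of the totalx2 cells. The summed level of 15 fibroblast markers was 15420, 24030 and 19720 CPM at day 8. It was 5033, 13290 and 9490 CPM in day 10 GFP+ cells and 3570, 6854 and 9872 CPM in day 10 GFP- cells. At day 12 it was 2667, 3122 and 3025 CPM in GFP+ cells and 11380, 13130 and 14910 CPM in GFP- cells. Of the 15, 14 fell from day 8 to day 10 in GFP- cells, where 10.7% of all genes fell. At day 12, 15 were lower in GFP+ than GFP- cells, where 30.4% of all genes were lower. From day 10 to day 12, 9 rose and 0 fell in GFP- cells, where 16.1% of all genes rose. In GFP+ cells 13 fell and 0 rose, where 12.9% of all genes fell. From day 8 to day 12 in GFP- cells 5 of the 15 fell and 2 rose, while 31 of 41 members fell and 0 rose. Of all genes, 14.5% fell and 17.1% rose there. The part of the fibroblast markers in the results was not tested. In bulk RNA, fewer cells of a type and less RNA per cell cannot be told apart.

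**Figure D3:**
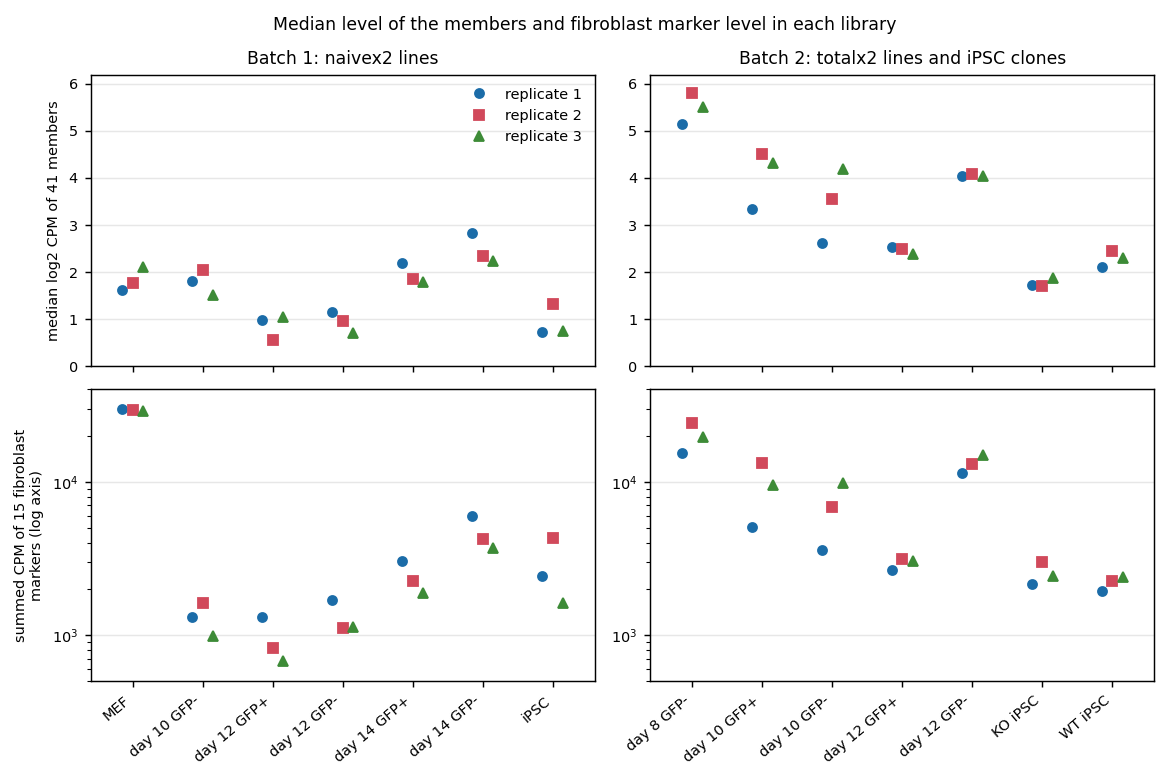
Median log2 CPM of 41 interferon-induced genes (top) and summed CPM of 15 fibroblast markers on a log axis (bottom) in each library, by group, with symbols for replicate 1, 2 and 3. In the totalx2 columns both panels are highest at day 8 and low in day 12 GFP+ cells. The batches were scaled apart and are not compared.

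Markers of leukocytes were present at low levels. The sum over 15 markers was 246.5, 380 and 370.3 CPM in totalx2 day 10 GFP+ cells and 305.8, 296.7 and 237.9 CPM in day 10 GFP- cells, most of it from Laptm5. Of the 15 markers, 12 were higher in day 10 GFP+ than GFP- cells and 1 was lower. Csf1r, the macrophage growth factor receptor, held 3.81, 10.6 and 11.5 CPM in GFP+ cells, against 0.491, 1.42 and 0.757 CPM in GFP- cells. From day 10 to day 12 in GFP+ cells, 9 of the 15 fell and 0 rose, where 12.9% of all genes fell. In batch 1, 13 of the 15 were lower and 2 higher in day 10 cells than in MEF. Of all genes, 37.6% were lower and 38.8% higher in that comparison. Csf1r held 18.9, 22.9 and 13.7 CPM in MEF. Ptprc, the common leukocyte antigen, was at 0 counts in all 6 naivex2 day 12 libraries. Whether such cells bear on the members was not tested.

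Established iPSC clones were set against the totalx2 day 12 GFP+ cells. In wild-type clones 7 members rose and 7 fell, where 51.1% of all genes were called, 25% higher and 26% lower. On library totals alone 5 rose and 10 fell, with the median of all genes at -0.15. Dtx3l rose to 33.0, 25.3 and 24.6 CPM in wild-type iPSC, against 11.3, 12.3 and 12.1 CPM in day 12 GFP+ cells. Oas1a, another enzyme of the RNase L pathway, held 7.20, 10.1 and 8.04 CPM in wild-type iPSC, against 3.11, 2.27 and 3.17 CPM in day 12 GFP+ cells. Bst2 fell to 12.0, 35.7 and 38.3 CPM in wild-type iPSC, against 163.5, 134.3 and 150.3 CPM in day 12 GFP+ cells (log2 fold change -2.35 ± 0.23, adjusted p = 2.12e-07). Oas2 fell to 6.27, 5.54 and 5.93 CPM in wild-type iPSC, against 31.9, 28.8 and 26.2 CPM in day 12 GFP+ cells. The cells differ in line, allele and culture as well as in stage, and these cannot be told apart.

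Loss of Tet1, which encodes a 5-methylcytosine dioxygenase, was accompanied by few called members. Of 41, 5 fell in knockout clones and 0 rose, where 10.7% of all genes were called, 4.78% higher and 5.87% lower. The share of members called was close to that of all genes called in either direction, and the share that fell was above that of all genes. Oas1a was higher at an unadjusted p under 0.05 (1 member) and 0 were higher in DESeq2, while 13 were lower at that p and 9 in DESeq2. The median log2 fold change over all 41 tested members was -0.52, against -0.04 over all genes. Xaf1 held 3.74, 2.92 and 3.83 CPM in knockout clones, against 9.74, 7.25 and 8.16 CPM in wild-type clones (log2 fold change -1.26 ± 0.27, adjusted p = 0.00512). Stat2 held 18.1, 18.9 and 22.6 CPM in knockout clones, against 36.4, 29.1 and 36.6 CPM in wild-type clones (-0.78 ± 0.19, adjusted p = 0.0106). Oasl2 held 2.53, 2.35 and 3.18 CPM in knockout clones, against 8.94, 6.92 and 4.85 CPM in wild-type clones. Ifi44, an induced protein of the cytoplasm, was at 0.440, 0.648 and 0.219 CPM in knockout clones, against 4.13, 2.04 and 1.48 CPM in wild-type clones. Eif2ak2 (PKR, the kinase that halts translation on double-stranded RNA) held 42.0, 37 and 38.5 CPM in knockout clones, against 85.2, 49.9 and 48.1 CPM in wild-type clones.

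The knockout clones lay below the wild-type clones in all 5, but overlap was not counted over all genes called. Xaf1 and Stat2 kept their calls when any one clone was left out, and the count was 2 without any one knockout clone or without wild-type clone 1, the library with 12.18% mitochondrial reads. Across other processing choices the count ranged from 2 with the clone number as a block to 9 in DESeq2. Clone numbers do not pair the clones, so that block has no basis in the design. Irf7 held 0.660, 1.22 and 1.64 CPM in knockout clones, against 2.13, 4.32 and 2.97 CPM in wild-type clones. The edgeR test did not call Irf7, while DESeq2 called it lower (adjusted p = 0.0125). Trim30a, named after its values were seen, held 96.2, 106.1 and 49.3 CPM in knockout clones, against 682.1, 38.4 and 132.2 CPM in wild-type clones, so that wild-type clone 1 stood apart.

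**Figure D4:**
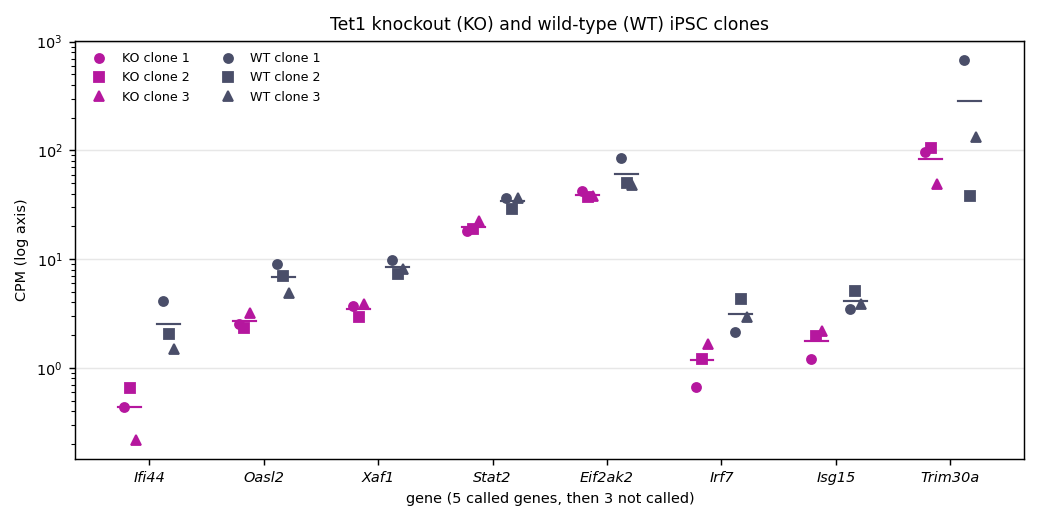
CPM on a log axis of 8 members in 3 knockout (KO) and 3 wild-type (WT) iPSC clones, with a line at each mean. The KO clones lie below the WT clones in the 5 called genes at the left and in Irf7 and Isg15. The edgeR test did not call Irf7 and Isg15, while DESeq2 called both lower. Trim30a spans 38.4 to 682.1 CPM within the WT clones.

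In batch 1 the members split when fibroblasts became day 10 cells. Of 41, 17 rose and 7 fell from MEF to day 10 GFP- cells, where 76.4% of all genes were called, 38.8% higher and 37.6% lower. The members' median log2 fold change was 0.53, against 0.06 over all genes. Without TMM factors 19 members rose and 6 fell, and all genes had a median of 0.34. All 3 transcription factors rose. Stat2 held 41.3, 38.4 and 37.8 CPM at day 10, against 15.6, 18.8 and 17.3 CPM in MEF (log2 fold change 1.19 ± 0.09, adjusted p = 8.06e-11). Bst2 held 67.8, 158.1 and 163.2 CPM at day 10, against 13.4, 11.6 and 12.5 CPM in MEF. Trim25 held 171.2, 195.2 and 206.4 CPM at day 10, against 48.9, 48.0 and 50.4 CPM in MEF. Oas2 held 9.51, 14.1 and 6.62 CPM at day 10, against 0.293, 0.758 and 0.532 CPM in MEF (log2 fold change 4.29 ± 0.39, adjusted p = 1.93e-09). No day 10 library of these 4 genes overlapped with MEF. Of 15 fibroblast markers 13 were lower at day 10 and 0 higher, and their part was not tested.

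The 7 that fell at day 10 shared several roles with members that rose. Among the members that block translation or degrade RNA 4 rose and 2 fell, and among the RNA sensors 2 rose and 1 fell. Ifit2, an RNA-binding relative of Ifit1, fell to 1.51, 1.06 and 0.356 CPM at day 10, against 21.6, 20.3 and 20.8 CPM in MEF (log2 fold change -4.43 ± 0.39, adjusted p = 1.54e-09). Irgm1 fell to 4.63, 5.28 and 2.99 CPM at day 10, against 19.1, 20.8 and 22.9 CPM in MEF. Ifih1 (MDA5, the sensor of long double-stranded RNA) fell to 2.36, 2.11 and 1.07 CPM at day 10, against 9.10, 8.17 and 9.87 CPM in MEF. Gbp2, a guanylate-binding GTPase, fell to 1.26, 0.858 and 0.641 CPM at day 10, against 5.11, 5.98 and 6.33 CPM in MEF. Isg15 held 1.85, 4.29 and 1.85 CPM at day 10, against 2.76, 2.69 and 4.49 CPM in MEF, and the groups overlapped.

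**Figure D5:**
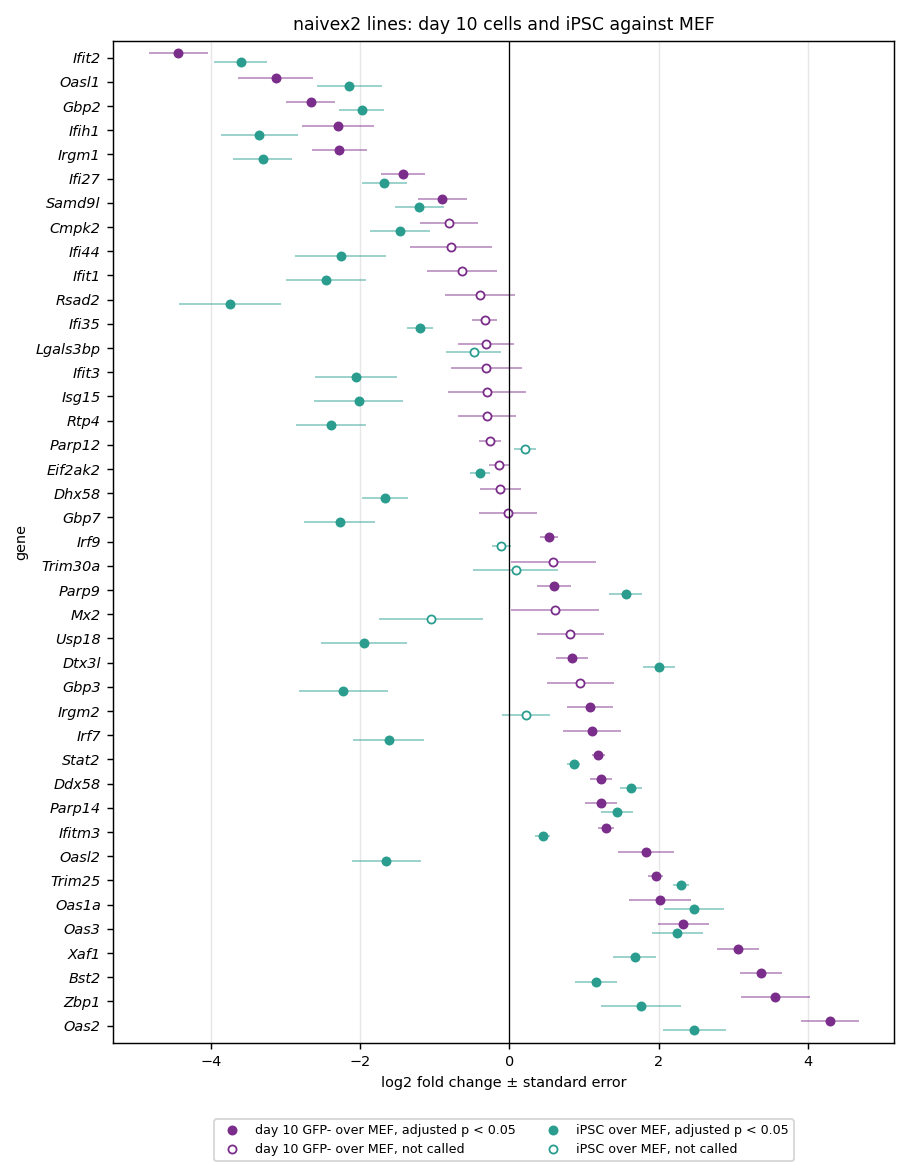
Log2 fold change over MEF with its standard error for each of 41 members in naivex2 day 10 GFP- cells (purple) and naivex2 iPSC (green), ordered by the day 10 value. Filled points passed an adjusted p of 0.05. At day 10, 17 filled points lie right of 0 and 7 left, and for iPSC 13 lie right and 22 left. The 2 comparisons share the MEF libraries.

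In naivex2 GFP+ cells day 14 was compared with day 12. In these cells 14 members rose and 1, Bst2, fell from day 12 to day 14, where 30.5% of all genes were called, 14.5% higher. Over the members the median log2 fold change was 0.68, against 0.00 over all genes, and the count of 15 became 8 without line 1 at day 14. Samd9l, an antiviral protein that restrains translation, held 8.72, 5.31 and 5.89 CPM at day 14, against 1.30, 0.798 and 0.438 CPM at day 12 (log2 fold change 2.92 ± 0.38, adjusted p = 8.37e-06). Oas1a held 4.61, 5.10 and 3.30 CPM at day 14, against 1.08, 0.998 and 0.964 CPM at day 12. Bst2 fell to 68.7, 79.2 and 73.7 CPM at day 14, against 126.4, 123.8 and 146.7 CPM at day 12. Summed fibroblast markers were 3052, 2241 and 1868 CPM at day 14 and 1300, 818.9 and 673.6 CPM at day 12 in these cells, and their part was not tested.

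In GFP- cells the day 10 and day 14 samples were compared. From day 10 to day 14, 9 members rose and 2 fell, where 36.8% of all genes were called, 20.3% higher and 16.5% lower, so that the share of members that rose was close to that of all genes. Of 15 fibroblast markers 12 rose and 0 fell, with sums of 6004, 4237 and 3704 CPM at day 14 and 1317, 1627 and 977.5 CPM at day 10, and their part was not tested. Gbp2 held 11.6, 8.19 and 8.24 CPM at day 14, against 1.26, 0.858 and 0.641 CPM at day 10 (log2 fold change 3.35 ± 0.32, adjusted p = 1.76e-07). Ddx58 and Xaf1 were those that fell.

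The naivex2 GFP gates were compared at days 12 and 14. At day 12, 2 members rose in GFP+ cells and 0 fell, where 16.6% of all genes were called, 9.93% higher and 6.69% lower. Those that rose were Xaf1, at 15.4, 18 and 16.5 CPM in GFP+ cells against 7.18, 7.97 and 7.86 CPM in GFP- cells, and Trim25. Gbp2 was lower at an unadjusted p under 0.05 (1 member) and in DESeq2 (1 member). At day 14, 3 members rose in GFP+ cells and 7 fell, where 31.3% of all genes were called, 14.4% higher and 16.9% lower. Gbp2 fell to 2.06, 1.77 and 2.20 CPM in GFP+ cells, against 11.6, 8.19 and 8.24 CPM in GFP- cells (log2 fold change -2.22 ± 0.29, adjusted p = 7.99e-06). Ddx58 rose to 74.5, 66.7 and 67.2 CPM in GFP+ cells, against 42.4, 38.1 and 39.9 CPM in GFP- cells. Of 15 fibroblast markers 7 were lower in GFP+ cells and 0 higher, with sums of 3052, 2241 and 1868 CPM in GFP+ cells and 6004, 4237 and 3704 CPM in GFP- cells, and their part was not tested. The count of 10 became 4 without line 1 in GFP- cells or without line 3 in GFP+ cells. Between the days, the GFP effect differed in 1 member, Ddx58, by 0.88 ± 0.20 (adjusted p = 0.0309), where 1.54% of all genes were called, 0.688% higher and 0.855% lower. A further 4 members were lower at an unadjusted p under 0.05 and 0 in DESeq2. That call was lost in 9 of 19 alternatives, 8 of them with 1 library left out.

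The naivex2 iPSC were set against the last sorted stage and against MEF. Against day 14 GFP+ cells 20 fell and 4 rose, where 46.8% of all genes were called, 22.5% lower and 24.3% higher. The median log2 fold change over the 41 tested members was -0.89, against 0.02 over all genes. Fibroblast markers went the other way, with 9 of 15 higher in iPSC and 0 lower. Of 15 leukocyte markers 7 were higher and 1 lower, and the part of either list was not tested. Oasl2 fell to 0.354, 1.60 and 0.435 CPM in iPSC, against 6.17, 4.11 and 3.93 CPM in day 14 GFP+ cells. Ifitm3 fell to 143.6, 138.1 and 108.5 CPM in iPSC, against 277.4, 270.1 and 274.3 CPM in day 14 GFP+ cells (log2 fold change -1.07 ± 0.10, adjusted p = 4.46e-08). Rsad2 had 2, 3 and 0 counts in the iPSC libraries. Those that rose were Dtx3l, Parp12, Parp9 and Ddx58. Dtx3l held 18.4, 19.2 and 22.5 CPM in iPSC, against 10.5, 8.92 and 6.44 CPM in day 14 GFP+ cells.

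Against MEF, 22 members were lower in iPSC and 13 higher, where 77.3% of all genes were called, 39.4% lower and 37.9% higher. The members' median log2 fold change was -1.20, against 0.02 over all genes. Without TMM factors 21 members were lower and 14 higher, and all genes had a median of 0.31. Of 15 fibroblast markers 13 were lower and 1 higher in iPSC, and of 15 leukocyte markers 13 were lower and 1 higher, and their part was not tested. Irgm1 fell to 0.990, 3.48 and 1.74 CPM in iPSC, against 19.1, 20.8 and 22.9 CPM in MEF. Trim25 rose to 199.8, 286.4 and 238 CPM in iPSC, against 48.9, 48.0 and 50.4 CPM in MEF (log2 fold change 2.30 ± 0.10, adjusted p = 2.96e-14). Of the PARP and DTX3L group 3 of 4 rose, and of the 5 tested GTPases 4 fell.

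The rest of the pathway was read from lists beside the members. None of 20 interferon genes passed the filter, and 17 of them, Ifnb1 included, had 0 counts in all 42 libraries, while the other 3 reached at most 2 counts in a library. Of 14 genes for receptors and JAK-STAT signalling, 10 were lower and 2 higher in totalx2 GFP+ than GFP- cells at day 12, with a median log2 fold change of -0.89. Of all genes tested, 30.4% were lower and 31.2% higher in that comparison, which is used in this paragraph unless another is named. Ifnar2, a chain of the type I receptor, held 6.23, 7.95 and 6.71 CPM in GFP+ cells, against 15.6, 16.8 and 13.6 CPM in GFP- cells. Of 16 tested genes for nucleic acid sensing and interferon induction, 11 were lower and 0 higher. Tlr3, the endosomal sensor of double-stranded RNA, held 1.37, 1.42 and 1.23 CPM in GFP+ cells, against 4.87, 4.23 and 5.03 CPM in GFP- cells. Irf3, which starts interferon production, held 47.0, 43.9 and 39.9 CPM in GFP+ cells, against 49.9, 48.0 and 45.9 CPM in GFP- cells. Irf3 was not called. From day 8 to day 10 in GFP- cells, 5 of the 14 and 5 of the 16 were lower and 0 higher. Of all genes, 10.7% were lower and 10.0% higher there. From day 8 to day 12 in GFP- cells, 2 of the 14 were lower and 3 higher, and 2 of the 16 were lower and 1 higher. Of all genes, 14.5% were lower and 17.1% higher from day 8 to day 12.

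A further list of 51 interferon-induced genes, of which 40 were tested, showed 27 lower and 5 higher in the same comparison (median log2 fold change -1.47). Of all genes, 30.4% were lower and 31.2% higher there. From day 8 to day 10 in GFP- cells 28 of the list were lower and 1 higher, where 10.7% of all genes were lower and 10.0% higher. From day 10 to day 12 in GFP+ cells 23 were lower and 2 higher, where 12.9% of all genes were lower and 12.2% higher. In knockout against wild-type clones 4 of the 40 were lower and 2 higher, where 5.87% of all genes were lower and 4.78% higher.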

How the data were processed

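RNA from 42 libraries was sequenced as stranded mRNA-seq, per the labels' protocols. The authors deposited raw counts, 1 row for each gene name. The authors aligned reads with HISAT2 2.1.0 to mm10, per the submitters' processing notes, and counted whole gene bodies, introns included, on the reverse strand with featureCounts 1.5.3, per the file headers. DESeq2 1.18.1 is also named in those notes.

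Each batch was fitted separately with edgeR 4.0.16 (R 4.3.3): filterByExpr, TMM scaling, prior count 2, all groups of the batch in 1 model, robust quasi-likelihood F test and Benjamini-Hochberg adjustment over all genes, with calls at an adjusted p under 0.05. No level was compared across batches. Total counts ran from 6540256 to 20783265, so that 3 counts correspond to 0.1388 to 0.4439 CPM, which covers counting error only. The scripts were tested on simulated counts.

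Results were recomputed with DESeq2 1.42.0, with a replicate block, with only the groups compared, with no low-count filter or a minimum of 1 CPM in 3 libraries, with RLE factors or no scaling factors, and with each library left out in turn. The comparisons of totalx2 GFP- cells between days 8 and 10 and between days 10 and 12, and the fits without totalx2 line 1, were added after seeing the data. Members and lists were chosen with earlier results of these data known. Genes were named by rule: 20 members in any group, up to 6 called members per direction with the smallest adjusted p, members whose call changed under an alternative, and a fixed set of pathway genes. Others, such as those in short lists of members not called, were named after their values were seen.

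Replicate numbers are line numbers in the sorted cells, which pairs those samples by design. In the batch 2 iPSC they are clone numbers, which do not pair samples. The main fit held no term for line, so its standard errors and p-values do not use the pairing by line. Correlations of same-numbered deviations ran from 0.0273 to 0.7613 in totalx2 cells, from -0.2705 to 0.6198 in naivex2 cells and from -0.1953 to 0.0566 in batch 2 iPSC. The title of 1 totalx2 day 12 GFP- library lacks the mCherry mark that the others carry. Figures were drawn with matplotlib 3.10.9.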

Additional observations from a re-analysis of the deposited data

Results flagged for a closer look

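The GFP effect differed between days in 36 results, by a test of the difference itself (an interaction contrast in edgeR's quasi-likelihood test, Benjamini-Hochberg adjusted over all genes of the batch). In the totalx2 cells 35 of 41 members had a lower GFP+ to GFP- ratio at day 12 than at day 10, where 27.3% of all genes differed in either direction. The differences of the log2 fold changes, day 12 minus day 10, were Isg15, -2.66, Irgm2, -2.55, Ifit3, -2.47, Ifit1, -2.46, Mx2, -2.46, Gbp3, -2.45, Gbp7, -2.41, Oasl2, -2.40, Lgals3bp, -2.40, Ifit2, -2.35, Rtp4, -2.27 and Cmpk2, -2.23. They were Oas2, -2.23, Zbp1, -2.16, Samd9l, -2.14, Ifi44, -2.13, Irf7, -2.11, Irgm1, -2.10, Ifih1, -2.08, Dhx58, -1.98, Oas3, -1.95, Usp18, -1.94, Gbp2, -1.92 and Parp14, -1.90 in the next 12 genes. In the remaining 11 they were Ifi27, -1.83, Parp9, -1.75, Dtx3l, -1.75, Rsad2, -1.73, Oas1a, -1.71, Ifi35, -1.38, Parp12, -1.09, Ifitm3, -0.93, Irf9, -0.90, Eif2ak2, -0.81 and Stat2, -0.72. The Stat2 and Eif2ak2 calls were lost in 10 and 8 alternatives, and the Ifi44 call was lost with no low-count filter. Summed fibroblast markers moved in the same direction, and their part was not tested.

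In the naivex2 cells Ddx58 was the member that differed, with a GFP effect higher at day 14 than at day 12 by 0.88 on the log2 scale. Its call was lost in 9 of 19 alternatives.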

How the results depend on the processing

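No result changed direction under any alternative run. Of the 17 counts of called members, 13 stayed within 1.5 times of their value under every alternative that kept all libraries. The exceptions were 4 comparisons. The knockout against wild-type count of 5 was 3 with library totals alone, 3 with no low-count filter and 3 with only the 2 groups. It was 9 in DESeq2 and 2 with the replicate block, which joins clones by number without a basis in the design. The totalx2 day 10 GFP count of 5 was 3 with only the 2 groups and 8 with the replicate block. The count of 9 for totalx2 GFP- cells at day 12 against day 10 was 14 with the replicate block. The naivex2 change of the GFP effect, 1 member, was 0 with no low-count filter. The replicate block moved no other count of members by over 1.5 times. The cause was not tested.

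With 1 library or line left out, the totalx2 counts were 34 to 38 (day 10 against day 8, GFP-), 5 to 21 (day 12 against day 10, GFP-), 25 to 30 (day 12 against day 8, GFP-), 3 to 16 (day 10 GFP), 33 to 35 (day 12 GFP), 25 to 35 (GFP+ day 12 against day 10) and 33 to 37 (change of the GFP effect). Those of the iPSC in batch 2 were 2 to 5 (knockout against wild type) and 12 to 16 (wild type against day 12 GFP+). The naivex2 counts were 23 to 25 (day 10 against MEF), 8 to 14 (day 14 against day 10, GFP-), 2 to 3 (day 12 GFP), 4 to 12 (day 14 GFP), 0 to 1 (change of the GFP effect), 8 to 15 (GFP+ day 14 against day 12), 19 to 30 (iPSC against day 14 GFP+) and 34 to 37 (iPSC against MEF).

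Over all genes, the knockout against wild-type count of 1619 was 448 with only the 2 groups and 233 with the replicate block. The wild-type iPSC against day 12 GFP+ count of 7761 was 5171 and 4613 under these settings. In both comparisons the block joins samples by a clone number that does not pair them. The naivex2 change of the GFP effect, 249 genes, was 928 with only its groups and 415 in DESeq2. With the replicate block the totalx2 counts were 5140 in place of 3398 (day 10 GFP), 6507 in place of 4143 (change of the GFP effect), 5323 in place of 3147 (day 10 against day 8) and 6783 in place of 4263 (day 12 against day 10). Levels under 0.4439 CPM rest on 3 counts or fewer in the shallowest library.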

Other observations

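Trim30a and Bst2 took extreme values in the 2 libraries with over 8% mitochondrial reads. In wild-type iPSC clone 1 Trim30a held 682.1 CPM, against 38.4 and 132.2 CPM in clones 2 and 3, and Bst2 held 12.0 CPM, against 35.7 and 38.3 CPM. In line 1 of the naivex2 day 10 cells Trim30a held 291.4 CPM, against 70.9 and 66.4 CPM in lines 2 and 3, and Bst2 held 67.8 CPM, against 158.1 and 163.2 CPM.

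Line 1 of the naivex2 day 14 GFP- cells held the highest of the 3 levels in 37 of 41 members, and the order was not counted over all genes. Summed fibroblast markers were 6004 CPM in that library, against 4237 and 3704 CPM in lines 2 and 3.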
